A study of Homo sapiens with 16 samples.

Results

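HT55 is an established human colorectal cancer cell line. Its response to itraconazole was read from 8 of the 16 libraries in the series, 4 from HT55 cells treated with 5 µM itraconazole and 4 from HT55 cells given DMSO, the solvent, with RNA taken at day 6 in each. These libraries were taken by their labelled line and treatment alone, and every Ensembl gene in the count files was considered. The other 8 libraries hold the second line, SW948, under the same treatments, and they are used here only to show where HT55 differs. The paper describes attached culture of HT55 in medium with serum and also serum-free spheroid culture. It does not say which of them gave these libraries. HT55 is 1 line, so it stands for no other tumor. The methods call the 4 replicates of a group biological, but neither they nor the labels say whether these were separate cultures, so p-values measure the spread between these libraries.

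Itraconazole is an azole antifungal. Azoles bind the sterol demethylase that fungi and human cells both need to turn lanosterol into the later sterols, and in human cells this enzyme is CYP51A1. When sterols in the endoplasmic reticulum run low, the transcription factors SREBP-1 and SREBP-2 are released from INSIG proteins and raise the genes for sterol synthesis and uptake. In the intestine, cells near the crypt base divide under Wnt signals and carry LGR5, and cells that leave it stop replicating DNA and take on the transporters of absorptive colonocytes or the mucus proteins of goblet cells. The study used these libraries to look for the molecular effects of itraconazole, with Wnt signaling, Hedgehog signaling, the cell cycle and senescence in view.

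Gene counts per library ran from 8269406 to 10844560. All 13 epithelial markers examined, among them EPCAM, KRT8 and VIL1, had counts in every HT55 library, and their summed level was 10133 to 10419 CPM (counts per 1000000 gene counts, scaled between libraries) with DMSO and 12021 to 12737 CPM with itraconazole. The 15 markers of other cell types summed to between 28.8 and 33.4 CPM with DMSO and between 23.9 and 63.4 CPM with itraconazole. COL1A2, COL3A1, CD3E, LST1 and HBB had no count, and most of the sum was CD68, a macrophage marker that is also a lysosomal membrane protein. CD68 stood at 26.7 to 31.1 CPM in the controls and at 58.9, 58.7, 20.2 and 40.1 CPM in treated replicates 1 to 4, and its part in any result was not tested. Of the 2 with enough counts to test, PDGFRB, a receptor of stromal cells, rose by 1.25 on the log2 scale, and CD68 was called only without treated replicate 3. Reads that aligned to several places were not counted in genes, and they made up 26.3% to 27.1% with DMSO and 27.3%, 27.9%, 24.1% and 24.8% in treated replicates 1 to 4.

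The treated libraries varied more among themselves than the controls did. On the first principal component of log2 CPM, which held 71.7% of the variance, the controls lay between -35.6 and -33.5 and the treated libraries at 34.3, 48.8, 14.8 and 41.5. Replicate 3 was therefore the treated library nearest to the controls. On the second component, with 15.7% of the variance, treated replicates 1 and 2 lay at -14.5 and -23.1, and replicates 3 and 4 lay at 35 and 15.7. The labels give no batch. The results below were computed with and without treated replicate 3.

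**Figure D1:**
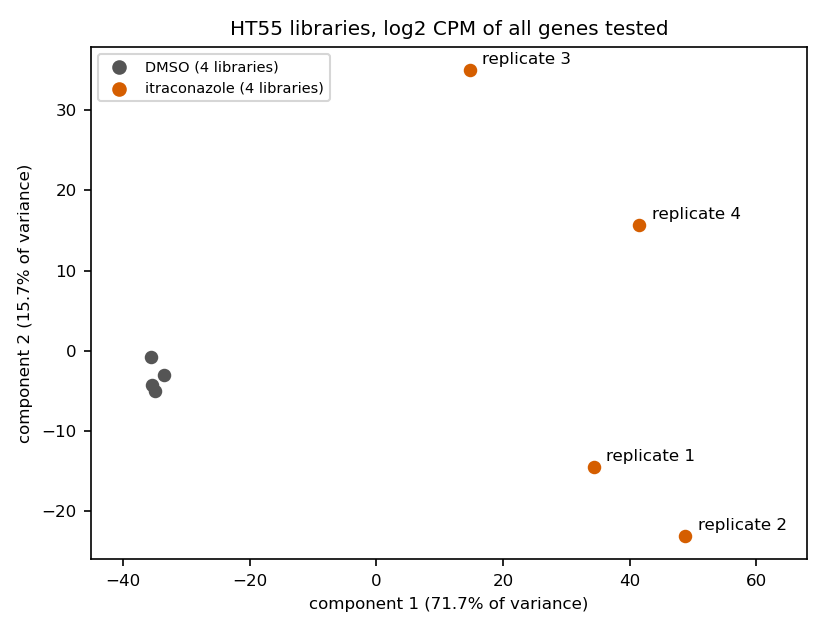
Each point is an HT55 library, placed by its first (x axis) and second (y axis) principal component of log2 CPM over all genes tested, with the percent of variance on the axis labels. The 4 DMSO libraries sit together near -35 on component 1, treated replicate 3 sits at 14.8, and the other treated libraries sit at 34.3 or higher.

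More than 1 gene in 2 changed. Of 12133 genes tested with all 8 libraries, 3340 rose (27.5%) and 3213 fell (26.5%) at an adjusted p under 0.05 in edgeR, together 54% of the genes. The list counts below are to be read beside these shares. Without treated replicate 3, 3999 of 12263 genes rose (32.6%) and 3912 fell (31.9%), together 64.5%. Of the 6553 genes called with it, 6410 (97.8%) were also called without it, all 6410 in the same direction, and 1430 of the genes tested both ways were called only without it. Among the 6410, 4893 had the larger absolute change when replicate 3 was left out. On plain library totals, with no scaling factor between libraries, 2279 genes rose (18.8%) and 4710 fell (38.8%), and the median log2 fold change of all genes shifted by -0.17. Log2 fold changes below come from the fit with scaling factors unless plain totals are named, and no median was subtracted. They are relative to that scaling, so a shift shared by most genes would not show in them.

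Among the 12 largest rises was SLC26A3 (chr7:107405912-107443670, minus strand, hg19), the chloride and bicarbonate exchanger of colonocytes. It stood at 580, 555, 484 and 504 CPM in the DMSO libraries and at 6354, 6916, 7047 and 8381 CPM in the treated ones. The groups did not overlap, and treated replicate 3 lay among the other treated libraries. The log2 fold change was 3.76 ± 0.11 (SE, adjusted p = 3.87e-08), a 13.5-fold rise. Groups that did not overlap were found for 49.5% of all genes tested. PCK1, which makes phosphoenolpyruvate for glucose synthesis, rose from 67.8 ± 5.57 to 628 ± 234 CPM (SD, n = 4), and ALDOC, a brain-type aldolase of glycolysis, from 12.3 ± 1.32 to 142 ± 35.6 CPM. TIMP2, an inhibitor of matrix metalloproteinases, rose by 3.19 on the log2 scale, and PALM3, a paralemmin, by 3.93. The other leading rises were AKR1C1, DUSP5, FBXO2, SERPINA1, UCA1, BCL6 and LINC01559, which are described below.

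Of the 12 largest falls, the first was in FGF19 (chr11:69513006-69518790, minus strand, hg19), an intestinal hormone that represses bile acid synthesis in the liver. It stood at 29.4, 29.1, 32.6 and 26.7 CPM with DMSO and at 3.2, 3.19, 5.81 and 2.99 CPM with itraconazole. Treated replicate 3 was the highest of the treated libraries and still far below every control. The log2 fold change was -2.92 ± 0.19 (SE, adjusted p = 3.37e-06), and -3.21 without replicate 3. HAS2, which makes hyaluronan, fell from 16.8 ± 1.34 to 3.83 ± 1.06 CPM (SD, n = 4), and MAP1B, a microtubule-binding protein, from 72.6 ± 8.54 to 14.5 ± 3.22 CPM. WNT5B, a Wnt ligand, stood at 33.4 to 40.2 CPM in the controls and at 7.09, 4.45, 18 and 5.98 CPM in treated replicates 1 to 4, so that replicate 3 lay between the other treated libraries and the controls. The log2 fold changes of the other leading falls were -2.50 for NIBAN1, a stress-regulated protein, -2.44 for MYH7B, a myosin heavy chain, and -1.96 for LAMP3, a lysosomal membrane protein. CDCA7 and ARRDC3, an alpha-arrestin, both reached -1.90, as did ACOX2, a peroxisomal oxidase of bile acid precursors. The long noncoding RNA LINC02418 (-2.04) and TMEM154 (-1.88) made up the rest.

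**Figure D2:**
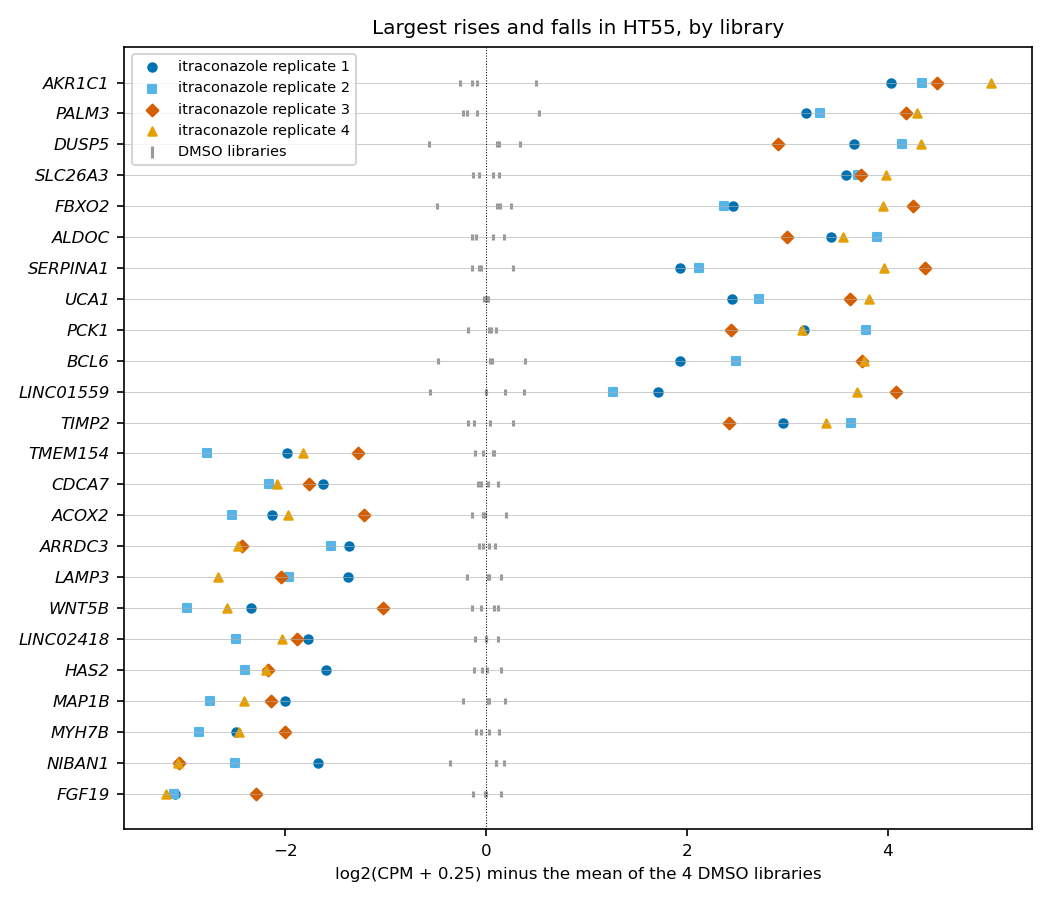
For the 12 largest rises and the 12 largest falls, the x axis gives log2(CPM + 0.25) of each library minus the mean of the 4 DMSO libraries. Gray ticks are DMSO libraries and colored symbols the 4 treated libraries. SERPINA1, FBXO2 and LINC01559 lie farther right in replicates 3 and 4 than in 1 and 2, while WNT5B falls least in replicate 3.

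Genes of cholesterol synthesis rose together. Of 21 enzymes tested, 18 rose and 2 fell, with a median log2 fold change of 0.72 against -0.015 over all genes, and the counts were the same without replicate 3. MSMO1, the sterol C4-methyl oxidase (chr4:166248819-166264316, plus strand, hg19), stood at 72.7, 75.2, 77.9 and 67.1 CPM with DMSO and at 255, 355, 183 and 319 CPM with itraconazole. Its groups did not overlap, and replicate 3 was the lowest treated library. The log2 fold change was 1.92 ± 0.17 (SE, adjusted p = 1.83e-05), or 2.09 without replicate 3. IDI1, which isomerizes isopentenyl diphosphate, rose by 1.66, and SQLE, the squalene epoxidase, by 1.62 on the log2 scale.

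CYP51A1, the human target enzyme of azoles, rose by less than the median of the list. It stood at 12.1, 10.1, 11.5 and 10.9 CPM with DMSO and at 15, 18.8, 16.9 and 17.9 CPM with itraconazole, a log2 fold change of 0.62 ± 0.11 (SE, adjusted p = 0.00104). All 4 treated libraries lay above all 4 controls. The 2 enzymes that fell were PMVK, the phosphomevalonate kinase, at -0.91, and LBR, a nuclear membrane sterol reductase, at -0.26, and TM7SF2, the other enzyme with that reductase activity, was not called (-0.033). The call for LBR was lost without DMSO replicate 1, when 1 member fell.

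The sensors and importers of sterols followed the enzymes. Of 13 genes of sterol sensing and uptake, 10 rose and 1 fell (11 and 1 without replicate 3), with a median of 0.73. INSIG1, which holds SREBP in the endoplasmic reticulum, stood at 121, 114, 134 and 111 CPM with DMSO and at 398, 523, 327 and 458 CPM with itraconazole, a log2 fold change of 1.83 ± 0.13 (SE, adjusted p = 5.89e-06). The lysosomal cholesterol exporters NPC1 and NPC2 rose by 1.18 and 1.09. SREBF2, the gene of SREBP-2, rose from 241 ± 11.4 to 381 ± 50.3 CPM (SD, n = 4), whereas SREBF1 was the member that fell, at -0.43, and 2 members fell without treated replicate 1.

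A sterol response element was sought as the letters TCACNCCAC on either strand of RefSeq promoters, from 250 bases before to 50 after the start of each gene. It was found in 1.15% of 27305 promoters, in 1 of 11 matched promoters of sterol sensing and uptake genes, and in none of 16 of cholesterol synthesis, which says only that these letters are absent from those windows. The 250 bases before the start of SREBF2 (chr22:41832855-41833104, plus strand, GRCh38.p14, RefSeq) are shown because this regulator rose and holds the element, in capitals.
SREBF2: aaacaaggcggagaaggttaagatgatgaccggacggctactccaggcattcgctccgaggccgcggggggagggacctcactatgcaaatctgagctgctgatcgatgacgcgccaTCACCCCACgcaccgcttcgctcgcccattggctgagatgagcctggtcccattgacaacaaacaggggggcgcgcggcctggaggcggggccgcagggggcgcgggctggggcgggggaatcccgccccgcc

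Fatty acid genes, the other targets of SREBP, were split. Of 9 tested, 5 rose and 2 fell (6 and 2 without replicate 3), with a median of 0.55. FASN, the fatty acid synthase, stood at 391 ± 31.7 CPM with DMSO and 930 ± 63.5 CPM with itraconazole (SD, n = 4) and rose by 1.25 ± 0.079 on the log2 scale (SE, adjusted p = 3.35e-06), and the desaturases SCD and FADS2 rose by 0.84 and 1.16. ACACB, a carboxylase that makes malonyl-CoA at mitochondria, and ELOVL6, an elongase, fell by 0.69 and 0.44. Only 1 member fell when any single library other than treated replicate 3 was left out, since the call for ACACB was lost. Targets of LXR, the sensor of excess sterol, gave no common direction: 2 of 6 rose and 1 fell, with a median of 0.071 that turned to -0.094 on plain totals. MYLIP, a ubiquitin ligase, rose by 0.90, LPCAT3, a phospholipid acyltransferase, fell by 0.59, and ABCA1, the sterol efflux pump, was not called (0.69, adjusted p = 0.109).

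Genes of the NRF2 antioxidant program and the aldo-keto reductases rose. Of 17 tested, 11 rose and 3 fell both with and without replicate 3, with a median of 0.76 (0.88 without it). AKR1C1, a reductase of steroids and xenobiotics, stood at 1.26, 1.39, 1.44 and 2.3 CPM with DMSO and at 29.3, 36.3, 40.3 and 58.6 CPM with itraconazole, a log2 fold change of 4.69 ± 0.27 (SE, adjusted p = 2.26e-06). Its near-identical neighbors AKR1C2 and AKR1C3 rose by 1.91 and 1.51. Reads shared by the AKR1C genes were not counted in any gene, so their separate levels are uncertain. OSGIN1, an oxidative stress growth inhibitor, rose by 2.61 and HMOX1, which degrades heme, by 2.43. The cystine importer SLC7A11 (-0.74), PGD (-0.30) and NFE2L2, the gene of NRF2 itself (-0.36), were the members that fell.

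Markers of absorptive colonocytes rose. Of 19 tested, 15 rose and the other 4 did not pass the test, with a median of 0.93, and 11 more members had too few counts to test. Without replicate 3, 15 rose and PHGR1 fell. KRT20, a keratin of surface colonocytes, stood at 186, 172, 182 and 174 CPM with DMSO and at 339, 292, 466 and 470 CPM with itraconazole, so that replicates 3 and 4 were the higher treated libraries. The log2 fold change was 1.13 ± 0.14 (SE, adjusted p = 0.000112). CEACAM1, CEACAM5 and CEACAM7, adhesion proteins of the brush border whose sequences are close to each other, all rose, the first and second by 1.61 and 1.27 and the last from 1.33 to 1.69 CPM in the controls to 3.99 to 8.61 CPM. The sodium and proton exchanger SLC9A3 rose by 1.57. The late colonocyte enzymes CA1, CA2 and CA4 had between 0 and 2 counts summed over each group and were not tested.

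General epithelial genes and intestinal regulators moved less. Of 13 epithelial markers, 7 rose and KRT19 fell (-0.19), with a median of 0.26. CLDN4, a tight junction claudin, rose from 276 ± 12.2 to 631 ± 81.4 CPM (SD, n = 4), while KRT8 stood at 2607 ± 33.7 and 2805 ± 21.6 CPM and was not called. Leaving out any DMSO library or treated replicate 4 ended the call for KRT19. Among 12 intestinal transcription factors 6 rose, led by ELF3 (0.77), PPARG (0.58) and ISX (0.49), and the other 6 were not called. HNF4A (0.12) and CDX1 (0.15) were among those not called, and CDX2 rose by 0.43. In the bile acid axis, 3 of 6 tested genes rose and 2 fell: SLC51B, a bile acid exporter subunit, rose by 2.46 at low level, FGFR4, the receptor for FGF19, by 0.83, and CYP27A1 by 1.11. ABCC3, an efflux pump, was the fall beside FGF19 (-0.18, adjusted p = 0.0361), and this call held only without DMSO replicate 3 or treated replicate 3 (-0.20 to -0.14 in the other 6 fits that left out 1 library).

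Secretory genes were few in HT55 and went both ways. Only 5 of 19 matched members had enough counts to test, so counts describe little, and ATOH1, SPINK4, CLCA1 and ZG16 had no count at all. AGR2, a disulfide isomerase of mucus-making cells, stood at 29.7, 29.9, 28.5 and 29.1 CPM with DMSO and at 9.71, 12.4, 6.37 and 7.41 CPM with itraconazole, with replicate 3 the lowest. Its log2 fold change was -1.71 ± 0.17 (SE, adjusted p = 3.26e-05), and -1.55 without replicate 3. TFF3, a trefoil peptide of goblet cells, fell from 50.2 ± 2.3 to 18.7 ± 4.34 CPM (SD, n = 4), and AGR3 fell as well. KLF4 rose by 0.44 and LYZ, lysozyme, by 1.39.

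Stem cell markers and Wnt targets fell, and how many did so depended on replicate 3. Of 20 tested, 9 fell and 1 rose with all libraries, with a median of -0.34, and 14 fell and 1 rose without replicate 3, with a median of -0.55. LGR5 (chr12:71833578-71980090, plus strand, hg19) stood at 27.1, 28, 23.4 and 24.4 CPM with DMSO and at 6.74, 5.25, 11.2 and 6.22 CPM with itraconazole, so every treated library was below every control. Its log2 fold change was -1.79 ± 0.20 (SE), and -2.07 without replicate 3. AXIN2, the usual feedback target of beta-catenin, behaved otherwise: it stood at 702 to 798 CPM in the controls and at 465, 430, 826 and 613 CPM in treated replicates 1 to 4. Replicate 3 lay above all 4 controls, and AXIN2 was called only without it (-0.34, adjusted p = 0.116 with it, and -0.54, adjusted p = 0.00037 without).

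Replicate 3 stood apart from the other treated libraries in other members as well. ASCL2, the Wnt-driven stem cell factor, stood at 194 to 229 CPM in the controls and at 132, 91.9, 201 and 114 CPM in treated replicates 1 to 4, so replicate 3 lay among the controls. TCF7, NKD1, SOX9 and APCDD1 joined AXIN2 in being called only without replicate 3. PTK7, a Wnt co-receptor, went the other way: the treated values were 419, 382, 330 and 328 CPM against 543 to 575 CPM in the controls, so replicate 3 fell as far as any. EPHB3, the ephrin receptor of crypt base cells, fell by 1.16 and TNFRSF19 by 1.39, while RNF43, NOTUM and LEF1 passed the test neither way and ZNRF3, another Wnt feedback gene, rose by 0.29. In bulk RNA, fewer cells that carry a gene and less of its RNA in each cell cannot be told apart.

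Hedgehog genes could be read only in part, because 7 of 11 members, among them GLI1 and SMO, had too few counts. Of the 4 tested, IHH, a ligand, rose from 105 ± 6.85 to 208 ± 21.4 CPM (SD, n = 4), and SHH, the other ligand, fell from 109 ± 2.3 to 55.9 ± 20.8 CPM. PTCH1, the receptor and a target gene of the pathway, stood at 204 to 224 CPM with DMSO and at 227, 215, 438 and 371 CPM in treated replicates 1 to 4. The groups overlapped, the log2 fold change was 0.55 ± 0.20 (SE, adjusted p = 0.0385), and the call was lost when any DMSO library or treated replicate 4 was left out (0.46 to 0.58) and on plain totals (0.40). GLI1 had 4 counts summed over the controls and none over the treated libraries.

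DNA replication genes fell almost throughout. Of 43 tested, 39 fell and the other 4 were not called, with a median of -0.70, and without replicate 3 it was 41 of 43 with a median of -0.83. GINS1, a subunit of the replicative helicase, stood at 45.8, 42, 39.3 and 42.7 CPM with DMSO and at 19.9, 17.8, 20.5 and 20 CPM with itraconazole, a log2 fold change of -1.12 ± 0.083 (SE, adjusted p = 7.12e-06). Here replicate 3 lay with the other treated libraries. For its partner GINS2 the treated values were 25.1, 20.9, 56.7 and 34.2 CPM against 69.5 to 75.3 CPM in the controls. MCM3, of the helicase ring, stood at 381 to 400 CPM with DMSO and at 186, 153, 332 and 205 CPM with itraconazole. In both genes replicate 3 kept more of the control level than the other treated libraries, yet stayed below every control. POLE2, a polymerase subunit, and PRIM1, the primase, fell by 1.17 and 1.10, and PCNA, the sliding clamp, by 0.69.

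Sites for E2F factors, which drive replication genes, were sought as the words TTTGGCGC, TTTCCCGC, TTTCGCGC and TTTGCCGC on either strand, and a promoter with more than one counted once. They were in 20 of 38 matched promoters of the replication list (52.6%), in 3 of 28 of the mitosis list (10.7%) and in 3.33% of all RefSeq promoters. The 250 bases before the start of 3 genes that fell are shown with the match in capitals, all on the minus strand of GRCh38.p14: GINS2 (chr16:85688955-85689204), MCM3 (chr6:52284743-52284992) and LIG1, the DNA ligase (chr19:48170345-48170594). They are those with the largest changes whose match lies before the start.
GINS2: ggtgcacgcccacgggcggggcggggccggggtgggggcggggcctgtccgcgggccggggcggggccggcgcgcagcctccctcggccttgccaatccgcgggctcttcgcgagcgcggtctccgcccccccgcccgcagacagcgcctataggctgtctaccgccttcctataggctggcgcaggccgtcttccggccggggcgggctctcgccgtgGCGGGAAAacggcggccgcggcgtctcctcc
MCM3: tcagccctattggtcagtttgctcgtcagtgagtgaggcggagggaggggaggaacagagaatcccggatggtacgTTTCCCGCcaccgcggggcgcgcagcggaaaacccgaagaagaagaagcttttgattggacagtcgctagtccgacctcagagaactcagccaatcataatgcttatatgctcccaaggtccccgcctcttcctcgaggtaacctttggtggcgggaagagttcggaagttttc
LIG1: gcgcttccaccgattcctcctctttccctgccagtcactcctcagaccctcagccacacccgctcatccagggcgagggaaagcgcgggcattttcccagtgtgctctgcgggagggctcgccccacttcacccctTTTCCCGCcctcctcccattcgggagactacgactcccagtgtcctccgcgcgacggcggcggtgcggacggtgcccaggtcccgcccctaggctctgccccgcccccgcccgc

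Mitosis genes also fell, with a smaller median change than replication genes. Of 34 tested, 22 fell and the rest were not called, with a median of -0.32, and without replicate 3 23 fell and 3 rose, with a median of -0.27. MKI67, the proliferation antigen, stood at 391 to 412 CPM with DMSO and at 286, 292, 375 and 350 CPM with itraconazole, a log2 fold change of -0.31 ± 0.090 (SE, adjusted p = 0.0143). CENPE, a kinetochore motor, fell from 26.7 ± 0.712 to 14.3 ± 1.82 CPM (SD, n = 4). The mitotic kinase gene AURKA went both ways: against 116 to 130 CPM in the controls it stood at 141, 194, 84.4 and 132 CPM in treated replicates 1 to 4. Replicate 3 was the only treated library below the controls, and AURKA was called, as a rise of 0.36, only without it, as were KIF20A and ANLN. HMMR was also lowest in replicates 3 and 4, at 15.2 and 16 CPM, against 25.3 and 31.8 CPM in replicates 1 and 2 and 35.1 to 41 CPM in the controls.

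Among inhibitors of cyclin-dependent kinases and other G1 genes, 6 of 15 rose and 3 fell (8 and 5 without replicate 3), but on plain totals 2 rose and 6 fell. CDKN1C, the p57 inhibitor, stood at 7.07 to 8.73 CPM with DMSO and at 17.7, 17.7, 18.2 and 18.2 CPM with itraconazole, nearly equal in the 4 treated libraries. Its log2 fold change was 1.16 ± 0.11 (SE, adjusted p = 1.92e-05). CDKN2D, the p19 inhibitor, stood at 13 to 14.9 CPM in the controls and at 14.3, 20.9, 15.9 and 18.7 CPM in the treated libraries, so the groups overlapped (0.35, adjusted p = 0.0408), and the call was lost on plain totals (0.18) and without DMSO replicate 1, 2 or 4 or treated replicate 2 or 4 (0.25 to 0.36). CDKN2B, which encodes p15, rose by 1.55, and CDK4 and RBL1, a relative of the retinoblastoma protein, fell by 0.65 and 0.94.

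Of genes tied to senescence and secreted proteolysis, 6 of 10 rose and 3 fell (also without replicate 3), and 13 more, IL6 and CXCL8 among them, had too few counts. SERPINE2, a protease inhibitor, rose from 89.2 ± 9.03 to 224 ± 37.9 CPM (SD, n = 4), PLAUR, the urokinase receptor, by 1.21, and GLB1, the lysosomal galactosidase that senescence stains detect, by 0.89. LMNB1, a nuclear lamin, fell by 0.58 and HMGB2 by 0.83. The p53-type stress genes were mixed, with 6 of 17 up and 4 down (2 down without treated replicate 4). That is 35.3% up and 23.5% down, beside 27.5% and 26.5% of all genes tested. CCNG1 rose by 1.06 and ZMAT3 by 0.95, and DDB2, of DNA repair, fell by 0.93. PHLDA3 rose by 4.65 from 0.211 ± 0.225 CPM, a level of a few counts a library.

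Amino acid genes of the integrated stress response fell. Of 19 tested, 12 fell and 2 rose (12 and 3 without replicate 3), with a median of -0.58. ASNS, the asparagine synthetase, stood at 534, 559, 547 and 578 CPM with DMSO and at 280, 230, 292 and 219 CPM with itraconazole, a log2 fold change of -1.12 ± 0.095 (SE, adjusted p = 1.29e-05). The serine synthesis enzymes PHGDH, PSAT1 and PSPH fell by 0.99, 0.95 and 0.81, and VLDLR, a lipoprotein receptor in the list, by 1.17. GDF15, a stress cytokine, rose from 141 ± 3.65 to 336 ± 63.4 CPM (SD, n = 4), against the direction of the list. The rises were 1 without any DMSO library or treated replicate 2 or 4. ER chaperones moved little, with 7 of 18 up and 3 down (10 and 3 without replicate 3, but 2 and 6 on plain totals). HSPA5, the main chaperone of the endoplasmic reticulum, stood at 665 to 691 CPM in the controls and at 982, 1065, 750 and 987 CPM in treated replicates 1 to 4, with replicate 3 nearest to the controls, and EDEM1, of ER degradation, fell by 0.40.

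Lysosomal genes rose. Of 31 tested, 21 rose and the other 10 were not called, with a median of 0.49, and without replicate 3 MITF was called as a fall beside 21 rises. CTSS, the cathepsin S protease (chr1:150702555-150738433, minus strand, hg19), stood at 18.5, 20.3, 15.8 and 17.7 CPM with DMSO and at 70.6, 80.9, 58.4 and 76.2 CPM with itraconazole, a log2 fold change of 1.98 ± 0.12 (SE, adjusted p = 2.72e-06). NEU1, a sialidase, rose by 1.62, SMPD1, the acid sphingomyelinase, by 1.32 and the saposin precursor PSAP by 1.29, while TFEB and TFE3, the regulators of these genes, were not called (0.12 and 0.14). Their shared element, sought as TCACGTGA, was in 5 of 19 matched promoters (26.3%), those of LAMP1, CTSA, GAA, MCOLN1 and ATP6V0D1, and in 1.04% of all promoters. LAMP1, CTSA and GAA rose by 0.41, 0.99 and 0.78, and ATP6V0D1 by 0.31 (edgeR adjusted p = 0.049). MCOLN1 was not called (0.13).

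Autophagy genes were mixed, with 14 of 27 up and 5 down (17 and 6 without replicate 3), and 7 up and 6 down on plain totals. GABARAPL1, an ATG8 protein of the autophagosome, stood at 21.5 to 24.5 CPM with DMSO and at 80.8, 114, 58.1 and 92.4 CPM with itraconazole, and the cargo receptors SQSTM1 and OPTN rose by 0.87 and 0.93. ATG10, ATG3 and ATG7, of the conjugation machinery, were among the 5 that fell, but only 2 fell when any DMSO library or treated replicate 4 was left out.

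Genes of the respiratory chain rose when carried on mitochondrial DNA. Of 13, 11 rose and MT-ND2 fell (-0.23), with a median of 0.52 and the same counts without replicate 3. The call for MT-ND2 was lost without DMSO replicate 1 or 4. MT-CO1 rose from 3151 ± 101 to 5343 ± 344 CPM (SD, n = 4). The nuclear subunits split more: 23 of 54 rose and 6 fell, with a median of 0.11, but 8 rose and 15 fell on plain totals. The falls were 2 or 3 when any DMSO library or treated replicate 4 was left out. SDHA, the flavoprotein of complex II, rose from 110 ± 3.09 to 169 ± 14.1 CPM, whereas UQCRC2 stood at 220 to 242 CPM with DMSO and at 390, 455, 223 and 307 CPM in treated replicates 1 to 4, so replicate 3 lay among the controls. Of 19 glycolysis genes 11 rose, among them ALDOA (0.76), HK2 (0.93) and PFKP (1.19), and PDK1, which shuts pyruvate out of mitochondria, fell by 0.88. On plain totals 8 glycolysis genes rose and 5 fell, and 3 fell without treated replicate 2.

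ARRDC3, the alpha-arrestin among the leading falls, stood at 40.7 to 45.4 CPM with DMSO and at 16.5, 14.5, 7.75 and 7.53 CPM in treated replicates 1 to 4. Replicates 3 and 4 were the lowest, and the log2 fold change was -1.90 ± 0.22 (SE, adjusted p = 6.86e-05). Its relatives did not follow: ARRDC2 rose by 0.84 and ARRDC4 by 0.32, and MLXIPL, the glucose-sensing factor ChREBP, fell by 0.73. In the list of 7, 4 rose and 2 fell, against 1 and 2 on plain totals. TXNIP, also written in the list, could not be matched to an identifier.

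Most cytosolic ribosomal protein genes were not called. Of 77, 2 rose and 5 fell, with a median of -0.0054, whereas 15 rose and 4 fell without replicate 3, and 37 fell on plain totals. Leaving out other single libraries gave from 0 (DMSO replicate 2 or 3) to 11 falls (treated replicate 2), and from 0 (DMSO replicate 1 or treated replicate 1) to 2 rises. RPS25 stood at 458 to 501 CPM with DMSO and at 732, 739, 478 and 567 CPM in treated replicates 1 to 4, with replicate 3 among the controls. RPLP0, by contrast, stood at 3310 to 3525 CPM with DMSO and at 2992, 3168, 2498 and 2489 CPM with itraconazole, so replicates 3 and 4 fell most. The RPS25 call was lost on plain totals and without DMSO replicate 1 or 3 or treated replicate 1 (0.32 to 0.40), and the RPLP0 call without any 1 DMSO library or treated replicate 4 (-0.29 to -0.24). Ribosomal protein genes have many near-identical pseudogenes, so the share of multiply aligned reads, lowest in replicates 3 and 4, is given above, and its part was not tested. Of 33 ribosome biogenesis genes, 10 fell (30.3%) and 2 rose (6.06%), beside 26.5% and 27.5% of all genes tested. Without replicate 3 it was 11 and 6, and on plain totals 22 and 2. The falls were led by the nucleolar proteins NOP56 (-1.11) and NOP58 (-0.79), and TAF1D, of RNA polymerase I, rose by 0.84.

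NF-kB genes leaned up, and interferon genes were mixed. Of 8 NF-kB genes with enough counts, 6 rose, and ICAM1, a leukocyte adhesion receptor, went from 2.84 ± 0.702 to 22.2 ± 10.4 CPM (SD, n = 4), while chemokine genes such as CXCL2 and CCL20 had too few counts to test. NFKBIA, the inhibitor of the pathway, rose by 1.06 and RELB by 0.86. Of 23 interferon and MHC class I genes 10 rose and 2 fell (13 and 2 without replicate 3, 6 and 5 on plain totals), including ISG20 (1.66), TAPBP (0.85) and OAS1 (0.71), and 1 fell without any DMSO library or treated replicate 4. IFIT1 stood at 0.918 to 1.57 CPM with DMSO and at 6.97, 6.27, 0.554 and 1.43 CPM in treated replicates 1 to 4, so it was above the controls in replicates 1 and 2 alone. It was not called with all libraries (adjusted p = 0.0561) and was without replicate 3 (2.06).

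Feedback genes of ERK signaling split, with 4 of 15 up and 3 down (6 and 3 without replicate 3, 2 and 7 on plain totals). That is 26.7% up and 20% down, near the 27.5% and 26.5% of all genes tested. DUSP5, the nuclear ERK phosphatase, stood at 2.83, 4.68, 4.72 and 5.51 CPM with DMSO and at 57.7, 80.4, 34 and 91.6 CPM with itraconazole, a log2 fold change of 3.89 ± 0.32 (SE, adjusted p = 1.17e-05). ETV5, an ETS factor induced by ERK, fell by 1.28 and SH2B3, an adaptor, by 0.91, while DUSP6, SPRY2 and SPRY4, common readouts of ERK activity, were not called with all libraries, and DUSP6 rose by 0.23 without replicate 3.

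**Figure D3:**
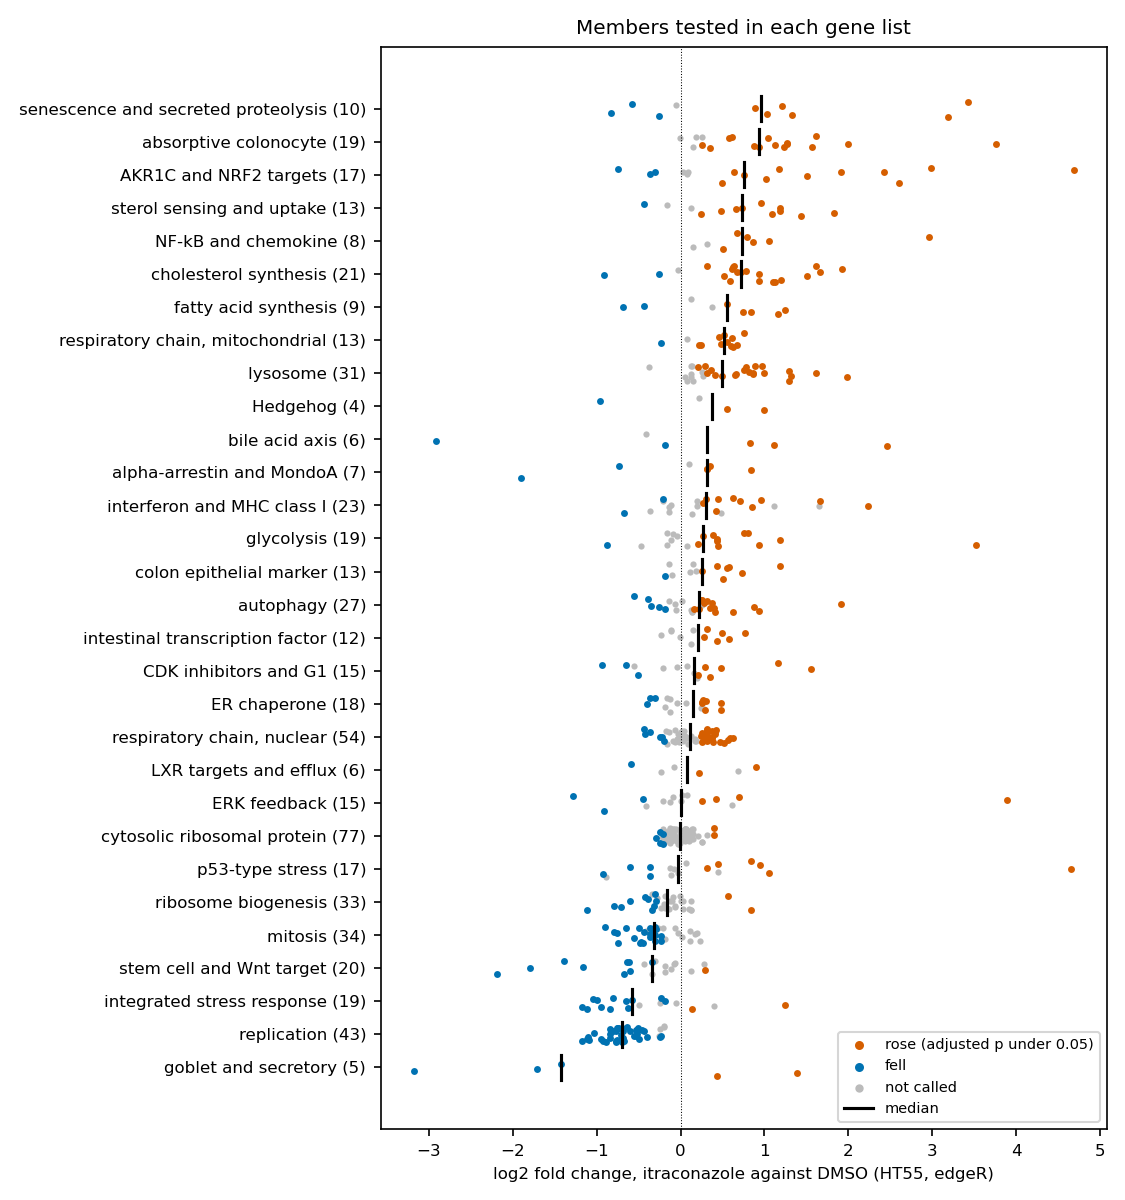
Each point is a member of a gene list tested in HT55, at its log2 fold change (x axis), with the number tested after the list name. Orange points rose, blue points fell, gray points were not called and black bars are medians. Medians run from -1.42 for goblet and secretory genes, -0.70 for replication and -0.58 for the integrated stress response up to 0.96 for senescence and secreted proteolysis.

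How far replicate 3 lay from the controls differed between gene lists. For each treated library the genes called without it were taken, and its distance from the control mean was given as a percent of the distance of the other 3 treated libraries. Over all such genes the median was 93% for replicate 1, 119% for replicate 2, 54.3% for replicate 3 and 113% for replicate 4, with 7840 genes behind the value for replicate 3. By list, replicate 3 had gone 25.2% of the way in replication (41 genes), 13.5% in stem cell and Wnt genes (15 genes), 25.4% in ER chaperones and 29.5% in nuclear respiratory genes. It had gone 93.5% of the way in cholesterol synthesis (20 genes), 83.8% in sterol sensing and uptake, 98.4% in mitosis and 89.2% in mitochondrially encoded genes. In absorptive colonocyte genes (16 genes) it had gone 117%, in the 5 goblet and secretory genes 136% and in the 6 alpha-arrestin and MondoA genes 140%, beyond the mean of the others. This was not particular to replicate 3, since replicate 4 had gone 124%, 139% and 132% in the same lists. Replicate 1 had gone 75.8%, 88.3% and 67.7%, and replicate 2 73.2%, 94.4% and 72.7%.

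In replicate 1 the medians ran from 67.7% to 120% over the lists drawn in the plot of library positions, which leaves out ribosomal protein genes. In replicate 2, replication genes had gone 181% of the way and nuclear respiratory genes 205%, but mitosis genes 65.3%. Replicates 1, 2 and 4 were each set against a mean that includes replicate 3. Replicate 3 itself had gone 25.2% of the way in replication, 29.5% in nuclear respiratory and 98.4% in mitosis genes. The values of replicate 2 in these lists therefore do not describe that library alone. In ribosomal protein genes the median for replicate 3 was -25.4% over 19 genes, on the far side of the controls, and those of replicates 1 and 2 were 33.2% over 8 genes and 36.7% over 13. On plain totals the values of replicate 3 were 28.3% for replication, 21.7% for stem cell and Wnt genes, 110% for cholesterol synthesis and 111% for absorptive colonocyte genes. These are descriptions of single libraries with no test, and they rest on genes that share a library.

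**Figure D4:**
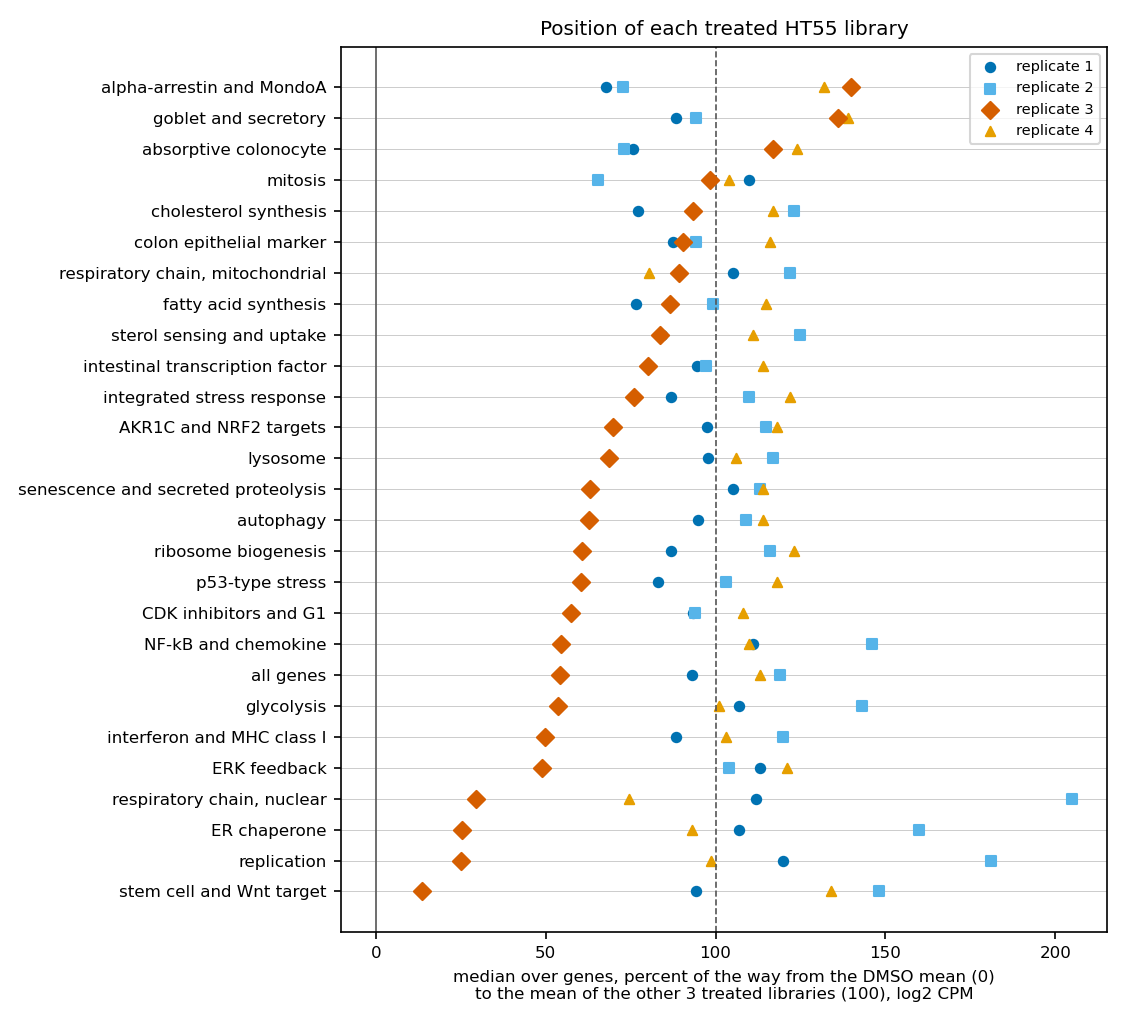
For each gene list with a value in all 4 treated libraries (y axis; ribosomal protein and bile acid genes are left out, and lists of few called genes are not drawn) and each library (symbols), the x axis gives the median percent of the way from the DMSO mean (solid line, 0) to the mean of the other 3 treated libraries (dashed line, 100), over genes called without that library. Orange diamonds, replicate 3, spread from 13.5 for stem cell and Wnt genes to 140 for alpha-arrestin and MondoA genes.

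Many genes set replicates 3 and 4 apart from 1 and 2. Of 12133 genes tested, both of treated replicates 3 and 4 lay above both of 1 and 2 in 3509, and below both in 3249. The cause of this split was not tested. The genes below were chosen after their values were seen or because they led the rises. SERPINA1, which encodes alpha-1 antitrypsin (chr14:94843084-94857030, minus strand, hg19), stood at 19.9, 21.2, 26.6 and 21 CPM with DMSO and at 84.5, 96.6, 460 and 346 CPM in treated replicates 1 to 4. All treated libraries were above the controls, but the SD among them, 186 CPM, was large beside their mean of 247 CPM. UCA1, a long noncoding RNA, stood at 183 to 189 CPM with DMSO and at 1015, 1228, 2295 and 2614 CPM with itraconazole, and BCL6, a transcriptional repressor, at 4.52 to 8.49 CPM and at 25.1, 37.1, 89 and 90.6 CPM. FBXO2, a ubiquitin ligase subunit that binds glycoproteins, stood at 14.7, 13.8, 51.6 and 41.9 CPM in the treated libraries, and LINC01559 at 13.3, 9.69, 70 and 53.5 CPM.

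CHRNA1, a muscle acetylcholine receptor subunit, and CEACAM8 were below 1 CPM in every control. CHRNA1 stood at 13.1, 10.9, 63.8 and 59.3 CPM and CEACAM8 at 2.63, 2.28, 28.1 and 24.5 CPM in treated replicates 1 to 4. The opposite pattern was seen in IL6R, the interleukin-6 receptor, with 1.64 to 2.94 CPM in the controls and 18.4, 26, 1.75 and 10 CPM in the treated libraries. GCNT1, a glycosyltransferase, stood at 40.2 to 45.7 CPM in the controls and at 80.3, 96.6, 15.3 and 41.6 CPM, so replicates 1 and 2 were above the controls, replicate 4 was among them and replicate 3 was below.

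Genes were also grouped by annotated type or by symbol. Of 418 long noncoding RNAs tested, 153 fell (36.6%) and 40 rose (9.57%), with a median of -0.34. Of 174 zinc finger genes with ZNF symbols on chromosome 19, 86 fell (49.4%) and 7 rose, with a median of -0.44, and of 215 on other chromosomes 78 fell and 36 rose. Solute carriers leaned up, with 79 of 217 rising and 37 falling, but 60 and 51 on plain totals. Without replicate 3, 174 long noncoding RNAs and 90 chromosome 19 zinc finger genes fell. Whether reads were counted by strand is not given in the sources used here, so reads of a noncoding RNA and of an overlapping gene may not be told apart, and members of the zinc finger clusters share sequence.

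The HT55 change was then compared with that of SW948 by the interaction of line and treatment. Of 13249 genes tested on all 16 libraries, 7141 (53.9%) differed, with the HT55 change above that of SW948 in 3849 (29.1%) and below it in 3292 (24.8%). In cholesterol synthesis the HT55 change was the lower one in 16 of 21 genes, and in the NRF2 and AKR1C list in 12 of 17, with 1 higher in the first. In mitosis it was lower in 26 of 34, so that these genes fell further in HT55, or rose less, than in SW948, whereas in replication it was higher in 24 of 43 and lower in 5. Absorptive colonocyte genes had the higher change in HT55 in 12 of 22 and the lower in 1. Without HT55 treated replicate 3 these were 16, 13, 26, 22 and 11, and on plain totals 16, 10, 22, 27 and 12. In cytosolic ribosomal protein genes, most of which were not called in HT55, the HT55 change was lower in 64 of 77 and higher in 1. The median difference was -0.49. The lower ones were 61 without HT55 treated replicate 3 and 50 on plain totals.

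Single genes were ranked by this difference only if they had a symbol, were called in HT55 and passed a minimum level in each line. Larger differences outside these limits would not be named. Of the genes ranked, INSIG1 had the most negative difference, of -4.37 ± 0.26 (SE, adjusted p = 7.8e-10), since it rose by 1.83 in HT55 and by 6.18 in SW948. CDKN1C rose in both lines, by 1.16 in HT55 and 4.52 in SW948. ARRDC3 fell by 1.90 in HT55 and rose by 2.42 in SW948, and TPPP, a tubulin-polymerizing protein, and TRIM47, a ubiquitin ligase, fell by 0.70 and 0.41 in HT55 but rose by 2.60 and 2.50 in SW948. At the other end, FAM111B, a protease of replicating cells, fell by 1.05 in HT55 against 4.55 in SW948, and the noncoding RNA HCG18 by 0.63 against 3.78. SLC6A20, a proline transporter, stood in HT55 at 11.7 ± 0.854 CPM with DMSO and 67.2 ± 14.4 CPM with itraconazole (SD, n = 4), a rise of 2.52 on the log2 scale against -0.45 in SW948. FRMD3 rose by 1.09 in HT55 and fell by 1.83 in SW948, and LINC01559 rose by 3.20 in HT55 and was not called in SW948 (0.21).

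**Figure D5:**
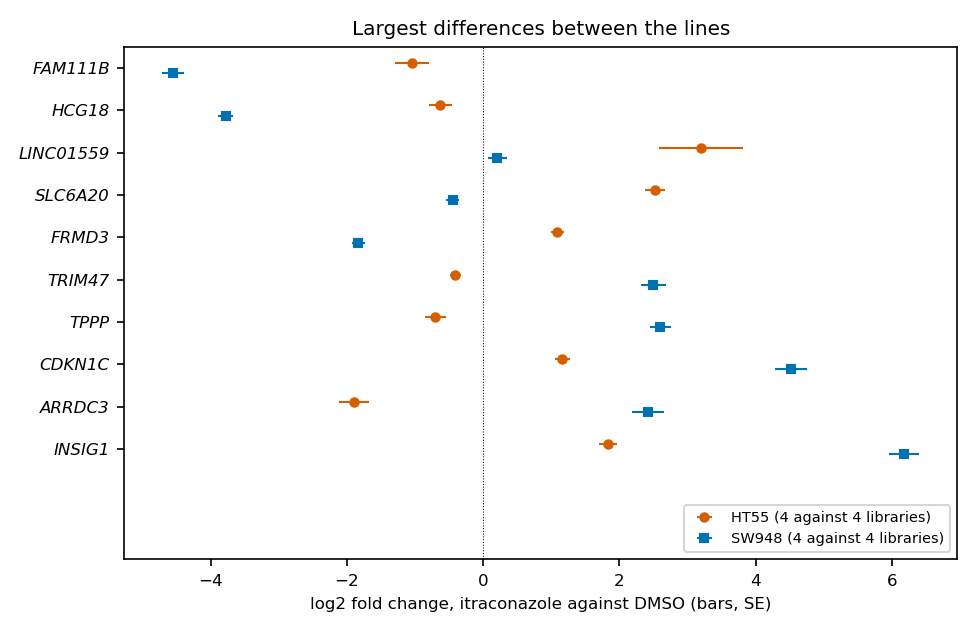
Shown are the 5 largest positive and 5 largest negative interactions among genes called in HT55 that passed a minimum level in each line. Points give the log2 fold change of itraconazole against DMSO (x axis) in HT55 (orange circles) and SW948 (blue squares). Bars give the SE of fits to 4 against 4 libraries. INSIG1 lies at 1.83 in HT55 and 6.18 in SW948, and ARRDC3 at -1.90 and 2.42.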

How the data were processed

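RNA sequencing was done on HT55 and SW948 cells after 6 days with 5 µM itraconazole or DMSO, with 4 libraries in each of 4 groups as labeled. The authors made TruSeq libraries, sequenced single-end reads of 50 bp and aligned them to hg19. The submitters' processing notes name TopHat, HTSeq and DESeq. The versions and the annotation release are not given in the sources used here. The deposited values are raw read counts per gene for 54127 Ensembl identifiers, followed by 5 totals that were dropped. Reads aligned to several places were not counted in genes.

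Symbols and hg19 coordinates came from GENCODE v44 mapped to GRCh37, for 39260 identifiers that held 97.7% of the counts. Promoters came from RefSeq (GRCh38.p14), matched by symbol. The 8 HT55 libraries were fitted in edgeR 4.0.16 (R 4.3.3) by quasi-likelihood, with TMM scaling, filterByExpr and no covariate. A gene was called when its p, adjusted by Benjamini-Hochberg over all genes tested, was under 0.05. The SE is the log2 fold change divided by the root of F. CPM used TMM-scaled totals, and log2 CPM a prior count of 2. TMM factors were 1.06 with DMSO and 0.898 to 1 with itraconazole. The interaction was fitted on all 16 libraries. The test was tried on simulated data. Reads had no molecular identifiers.

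Alternatives tried were plain totals, size factors from DESeq2 (1.42.0), its Wald test, no filter, a minimum of 10 counts per library, a threshold of 0.01 on the adjusted p, an absolute log2 fold change of at least 1, a replicate block, 1 fit on 16 libraries, no top or mitochondrial genes, and each library left out in turn. Members and the 31 gene lists were chosen with earlier results of these data known, so a list's direction is not independent evidence. Named were the 12 largest rises and 12 largest falls (mean log2 CPM of at least 3, groups not overlapping), up to 3 called members of each list (mean log2 CPM of at least 2) and 12 fixed genes. The 5 largest interactions in each direction were named as well. They were ranked among genes with a symbol that were called in HT55 and reached the minimum of 3 in HT55 and also in SW948. Other genes were named after their values were seen. Some members of the lists are counted but not reported by name here.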

Additional observations from a re-analysis of the deposited data

Results flagged for a closer look

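Libraries that lay far from the other 3 of their group, by Dixon's ratio of the gap to the range (at its 95% critical value), were found in 10 of 250 groups of 4 examined, where chance flags about 1 in 20, or 12.5. Among treated libraries all 4 were replicate 3: FGF19 at 5.81 CPM (ratio 0.899), NDC80 at 27.7 CPM (0.968), SERPINE2 at 168 CPM (0.875) and SH2B3 at 24 CPM (0.944), each nearer to the controls than the other treated libraries. Among DMSO libraries, replicate 3 was low for NIBAN1 at 52.2 CPM (0.855), DNAJB9 at 48 CPM (0.87) and ABCC3 at 141 CPM (0.841). Replicate 4 was low for ISG20 at 2.87 CPM (0.985) and had the highest share of reads outside genes, 4.42% (0.957), and replicate 1 was high for TRIM47 at 43.4 CPM (0.853).

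The HT55 change differed from the SW948 change, by the interaction term in edgeR, in 10 genes named for it. The difference (HT55 minus SW948, log2) was 3.47 for FAM111B (adjusted p = 4.8e-07), 3.12 for HCG18 (adjusted p = 1.89e-09), 2.97 for LINC01559 (adjusted p = 0.000551), 2.94 for SLC6A20 (adjusted p = 1.26e-09) and 2.90 for FRMD3 (adjusted p = 3.69e-11). It was -4.37 for INSIG1 (adjusted p = 7.8e-10), -4.35 for ARRDC3 (adjusted p = 1.42e-08), -3.39 for CDKN1C (adjusted p = 2.11e-08), -3.33 for TPPP (adjusted p = 3.25e-09) and -2.94 for TRIM47 (adjusted p = 1.89e-09).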

How the results depend on the processing

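The count of changed genes in HT55, 6553, ran from 5560 to 7911 when each library was left out in turn, with 2983 to 3999 rises and 2577 to 3912 falls, and the highest values were those without treated replicate 3. DESeq2 size factors gave 6535, the DESeq2 Wald test 6440, no filter 6560 and at least 10 counts in every library 6156. A minimum absolute log2 fold change of 1 left 1169 genes, 644 up and 525 down, and an adjusted p under 0.01 left 2082 falls. Without treated replicate 3, plain totals gave 2571 rises and 5735 falls. Interaction calls ran from 6762 to 7450 with 1 library left out.

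The labels share replicate numbers between groups, but deviations of same-numbered libraries correlated between -0.0448 and 0.145, and not every library correlated best with its own number, so the numbers were not taken as pairs. With the replicate block 6300 genes changed in HT55, 7034 did without treated replicate 3, and 7037 had an interaction. Among genes chosen by the naming rule the block ended the calls for ABCC3 and CDKN2D.

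Of 1883 values under alternatives of the 118 genes chosen by the naming rule, which leaves out other genes of the text such as LBR, ACACB and KRT19, 1846 kept direction and call and 37 lost the call. These came from 7 genes: NR1H2, PTCH1, RPS25, RPS26, RPLP0, ABCC3 and CDKN2D. None reversed. Of 1080 list counts under alternatives, 888 were within 1.5 times the main count. The cause of the other changes was not tested. Genes with few counts, such as most secretory, Hedgehog and chemokine genes, could not be tested at this depth.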
